A study of Saccharomyces cerevisiae with 21 samples.

Results

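The 10 genes described here carry iron into baker's yeast, Saccharomyces cerevisiae. They are FRE1, FET3 and FTR1 of reductive iron uptake, ARN1, ARN2, SIT1 and ENB1 of siderophore-iron transport, and FIT1, FIT2 and FIT3 of the cell wall. They were chosen by gene symbol from a table of 7123 features measured in 21 RNA sequencing libraries, and all 10 were found and tested. All 10 rose in the strain ΔU against its own BY4741 controls, where 36.5% of all genes tested were called higher. In ume6Δ, FET3 and SIT1 fell and FRE1 and FIT1 rose, where 34.4% of all genes tested were called. The share of the 10 called is near that of all genes, and the calls of SIT1 and FRE1 depended on the libraries kept. None of the 10 passed the test in ΔP, Tpho84-Tcyc1, pho4Δ or pho84Δ, though up to 2 did in ΔP and pho4Δ under alternative settings. The shares of all genes called there were 9.47%, 7.97%, 0.223% and 0.291%.

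Yeast takes up iron by a pair of high-affinity routes. In the reductive route, reductases of the plasma membrane such as Fre1 reduce ferric iron, the multicopper oxidase Fet3 reoxidises it, and the permease Ftr1, which works in a complex with Fet3, carries it across the membrane. In the other route, the transporters of the Arn family import iron bound to siderophores, iron chelators that other microbes release and that this yeast does not make, and the mannoproteins Fit1, Fit2 and Fit3 help to hold siderophore-iron in the cell wall. The transcription factors Aft1 and Aft2 activate both routes when iron is scarce, and Aft1 reads the cell's iron status through iron-sulfur clusters and the glutaredoxins Grx3 and Grx4.

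The strains were analysed as 2 series, and the labels do not say whether these were grown apart. Series 1 held BY4741 (cultures 1 to 3), BY4741ΔP (written ΔP here, n = 3) and Tpho84-Tcyc1 (n = 3), and series 2 held BY4741 (cultures 4 and 5), 3 cultures each of BY4741ΔU (ΔU) and ume6Δ, and 2 cultures each of pho4Δ and pho84Δ. BY4741 is a haploid laboratory strain of mating type a that carries deletions in HIS3, LEU2, MET17 and URA3. The last 3 groups are named as deletions of UME6, a repressor of early meiotic genes, of PHO4, the activator of the phosphate starvation response, and of PHO84, a high-affinity phosphate transporter; what ΔP, ΔU and Tpho84-Tcyc1 alter is not stated in the labels, and no meaning was assumed. All cultures grew at 30 °C in synthetic medium, where potassium phosphate was at 7.2 mM and KCl at 50 mM, and were harvested at an absorbance at 620 nm of 0.5. As the cultures of a strain came from a shared overnight culture, the spread behind each p-value is that of parallel cultures, and the labels do not say whether any strain was made more than once. That BY4741 1 to 3 belong to series 1 was inferred from their numbers and the design text.

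Levels are given as RPM, the reads of a gene per megaread of its library. The libraries held 10.98 to 49.8 megareads, with a median of 17.9. The deleted genes checked the labels: UME6 stood at 0 to 0.343 RPM in ume6Δ and at 52.9 RPM or more in every other library, PHO4 at 0.0757 and 0.115 RPM in pho4Δ, and PHO84 at 0.0771 and 0.143 RPM in pho84Δ. PHO84 was also at 0.0757 and 0.0577 RPM in pho4Δ, so its level does not tell pho4Δ from pho84Δ. PHO4 does, being at 75.0 and 84.7 RPM in pho84Δ. In Tpho84-Tcyc1, PHO84 was at 0.807 to 1.42 RPM. In ume6Δ, PHO84 was at 8.41 RPM in culture 1 against 83.8 and 89.8 RPM in the other cultures. The summed level of the a-specific genes MFA1, MFA2, STE2, AGA2 and BAR1 was 855 to 1304 RPM over the 21 libraries, that of the alpha-specific genes STE3, MF(ALPHA)1, MF(ALPHA)2 and SAG1 was 25.4 to 48.4 RPM, and URA3, LEU2 and MET17 had 0 reads, as the genotype of BY4741 has it.

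The upstream sequences are shown first because the 10 genes moved together in ΔU and because Aft1 binds a short core motif before many of its target genes. In the RefSeq sequence of build R64 each gene is 1 coding exon and overlaps no other annotated gene. The stretch of 300 bases that ends 100 bases short of the start codon was searched on both strands for the letters TGCACCC. They were found before 8 of the 10 genes, 15 times in all, and before 87 of 5985 yeast genes with such a stretch, which is 1.45%. The 10 belong to routes that Aft1 and Aft2 activate, so the choice of genes alone favours a high share. Whether the matches bear on the rise in ΔU was not tested. FRE1 and ARN2 had no match in this window. The log2 differences in ΔU were 0.81 to 2.71 for the 8 genes with a match and 0.83 to 0.97 for the 2 without. FIT2, the gene with the largest difference in ΔU, had 4 matches, the most of the 10. The number of matches did not otherwise rank the differences. SIT1 and FET3, with 1 match each, differed by 2.11 and 1.72, and FIT3, with 2 matches, by 0.81. The whole stretch of FIT2 is printed 5′ to 3′ on the strand of the gene, with TGCACCC or its reverse complement GGGTGCA in capitals.
FIT2, chrXV:1059131-1059430, plus strand: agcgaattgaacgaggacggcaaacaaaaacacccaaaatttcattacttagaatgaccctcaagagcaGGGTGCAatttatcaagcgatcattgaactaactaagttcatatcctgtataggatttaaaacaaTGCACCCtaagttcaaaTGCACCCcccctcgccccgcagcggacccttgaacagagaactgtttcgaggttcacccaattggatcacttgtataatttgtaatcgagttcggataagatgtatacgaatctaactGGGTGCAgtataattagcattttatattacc

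The matches of the other 7 genes are shown as windows of 30 bases, so that their flanks and orientation can be compared, again on the strand of the gene and with the core in capitals.
FET3, chrXIII:388560-388589, plus strand: atcttcaaaagTGCACCCatttgcaggtgc
FTR1, chrV:462087-462116, minus strand: tttccaggccaGGGTGCAgaaatactatta
FTR1, chrV:461897-461926, minus strand: gcgtagatgaaTGCACCCgatttctaagtt
ARN1, chrVIII:21213-21242, minus strand: atttatcaaaaTGCACCCataaaagcaggt
SIT1, chrV:27458-27487, plus strand: aacacatttgaGGGTGCAatctggttcgtc
ENB1, chrXV:21486-21515, minus strand: gtttaaattatTGCACCCaaatgtgataca
ENB1, chrXV:21430-21459, minus strand: cggcttacaatTGCACCCctctgtggcttt
FIT1, chrIV:1505166-1505195, minus strand: taactatgccgTGCACCCtgttccgcaccc
FIT1, chrIV:1505064-1505093, minus strand: gttctaggaaaGGGTGCAaaaaaatgaata
FIT3, chrXV:1061322-1061351, minus strand: agattttttttTGCACCCtgtttgttccgc
FIT3, chrXV:1061221-1061250, minus strand: attctaggaaaGGGTGCAaaaaaatggggt

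FIT1 and FIT3 held their pair of matches in the same arrangement: a match on the strand of the gene began 284 and 285 bases before the start codon, and a match on the opposite strand 182 and 184 bases before it. ARN1 and FET3 each held a lone match, at 260 and 251 bases. SIT1 also held a lone match, on the opposite strand at 188 bases. The shorter letters GCACCC, which every TGCACCC contains, were found before the same number of the genes, 8 of 10, and before 4.90% of all. Of the letters bound by the phosphate activator Pho4, CACGTG was found before 0 of the 10 and before 4.56% of all genes, and CACGTT before 1 of the 10, ARN2, and before 9.86% of all. GGCGGC, the core that Ume6 binds, was found before 0 of 10 and before 6.12% of all. A match is a description of letters and does not show binding, and no match says only that the letters are not in this window.

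**Figure D1:**
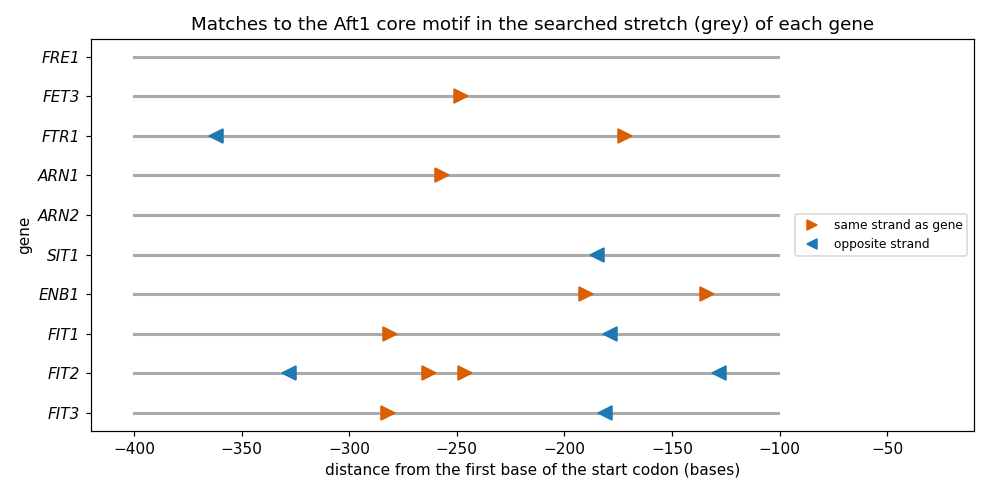
Positions of the letters of the Aft1 core motif before the 10 genes, as the distance in bases from the first base of the start codon; grey lines mark the stretch searched and triangles mark the strand of each match. There are 15 matches before 8 genes, 4 of them before FIT2, and none before FRE1 and ARN2.

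In ΔU, every library lay above both BY4741 libraries of its series for every one of the 10 genes, and limma called all 10 higher, where 36.5% of the 5840 genes tested in this comparison were called higher and 13.2% lower (limma with Benjamini-Hochberg adjustment over all genes tested, adjusted p under 0.05). The median log2 difference of the 10 genes was 1.42, against 0.15 for all genes tested. Differences are on the scale of log2(RPM + 1), which understates the change of genes at low RPM. In RNA from a whole culture, more cells that express a gene and more RNA per cell cannot be told apart. After rescaling the RPM with TMM factors, which moved the median of all genes to 0.02 and the number of genes called higher from 2133 of 2904 to 1360 of 2756, the 10 differences were 0.68 to 2.58 with a median of 1.28, and all 10 remained called.

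**Figure D2:**
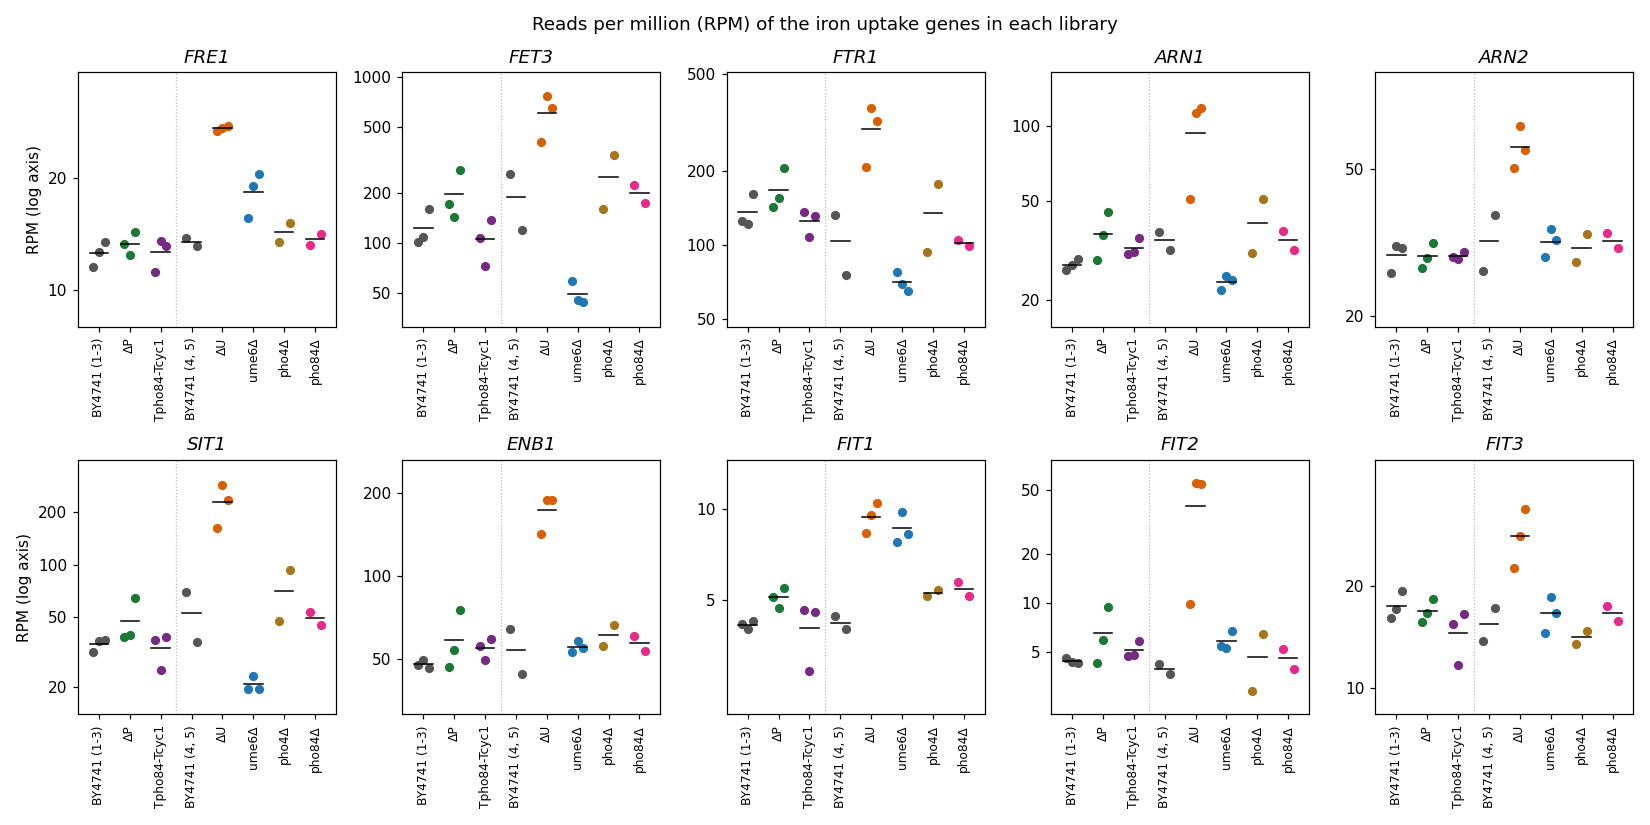
RPM of each gene in each of the 21 libraries on a log axis that differs between panels; points are libraries, black lines are group means, and the dotted line parts series 1 (left) from series 2. The orange points of ΔU stand above all other libraries for 9 of the 10 genes, FIT1 being the exception, and the blue points of ume6Δ are the lowest of all for FET3, SIT1 and ARN1.

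Of the genes of reductive uptake, FET3, the ferroxidase (YMR058W, chromosome XIII, 388822 to 390732), was at 406, 765 and 647 RPM in ΔU 1 to 3 and at 259 and 120 RPM in BY4741 4 and 5. The groups did not overlap, but the BY4741 libraries differed from each other by 2.15 times. The difference was 1.72 on the log2 scale (SE 0.33, limma, adjusted p = 0.00077), and it was 2.27 without BY4741 4 and 1.17 without BY4741 5. FTR1, the permease that works with Fet3 (YER145C, chromosome V, 460526 to 461740), was at 208, 364 and 320 RPM in ΔU and at 133 and 75.4 RPM in BY4741. It rose by 1.52 (SE 0.27, adjusted p = 0.000379, limma). FRE1, a reductase of ferric and cupric ions (YLR214W, chromosome XII, 568567 to 570627), was nearly level among the ΔU libraries at 26.8, 27.2 and 27.6 RPM, against 13.8 and 13.1 RPM in BY4741. Its difference, 0.97 (SE 0.12, adjusted p = 1.84e-05, limma), was smaller than that of FET3 and FTR1 and had the smallest SE of the 10 genes.

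Per kilobase of coding sequence, FET3 and FTR1 were the most abundant of the 10 transcripts in BY4741 of series 2, at means of 99.3 and 85.7 RPM per kilobase, and FIT1 the least, at 2.64. In ΔU, FET3 reached 317 and FTR1 245 RPM per kilobase, and the transporters SIT1 and ENB1 reached 120 and 95.1.

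The 4 siderophore-iron transporters all rose in ΔU. SIT1, which imports ferrioxamine B (YEL065W, chromosome V, 27657 to 29543), was at 162, 284 and 233 RPM in ΔU and at 69.8 and 36.1 RPM in BY4741, a difference of 2.11 (SE 0.28, adjusted p = 4.67e-05, limma). ENB1, the transporter of iron-enterobactin (YOL158C, chromosome XV, 19491 to 21311), was at 142, 189 and 188 RPM against 64.3 and 44.2 RPM. It rose by 1.67 (SE 0.15, adjusted p = 1.69e-06, limma), the lowest adjusted p of the 10 genes. ARN1, which imports iron-ferrichrome (YHL040C, chromosome VIII, 19088 to 20971), had ΔU 1 close to the controls: it was at 51.1 RPM in ΔU 1, at 112 and 117 RPM in ΔU 2 and 3, and at 37.7 and 31.9 RPM in BY4741. Its difference was 1.31 (SE 0.28, adjusted p = 0.00147, limma). ARN2, a transporter of iron-triacetylfusarinine C (YHL047C, chromosome VIII, 8351 to 10213), had the smallest difference of the family, 0.83 (SE 0.14, adjusted p = 0.000325, limma), with 50.3 to 65.3 RPM in ΔU and 26.5 and 37.6 RPM in BY4741. The coding sequences of the 4 transporters are 55.7% to 61.6% identical in pairwise alignments, and every stretch of 50 bases in them occurs once in the genome, so reads of this length would not be shared between them.

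The cell wall mannoproteins held the largest difference of the 10, that of FIT2. FIT2 (YOR382W, chromosome XV, 1059531 to 1059992) was at 9.92, 54.6 and 53.8 RPM in ΔU 1 to 3 and at 4.20 and 3.67 RPM in BY4741, so that ΔU 1 stood well below the other ΔU cultures but above both controls. The difference was 2.71 (SE 0.51, adjusted p = 0.000699, limma), and 3.49 without ΔU 1; with voom on the recovered reads FIT2 was not called (adjusted p = 0.0614). FIT3 (YOR383C, chromosome XV, 1060441 to 1061055), whose coding sequence lies 449 bases from that of FIT2 on the opposite strand, was at 22.5, 28.0 and 33.6 RPM in ΔU and at 13.7 and 17.2 RPM in BY4741. It rose by 0.81 (SE 0.15, adjusted p = 7e-04, limma), less than its neighbour. FIT1 (YDR534C, chromosome IV, 1503314 to 1504900) was at 8.35, 9.56 and 10.5 RPM in ΔU and at 4.40 and 3.98 RPM in BY4741, a difference of 1.01 (SE 0.14, adjusted p = 5.58e-05, limma). FIT1 is 80.7% identical to FIT3 over 615 aligned bases, but no stretch of 50 bases is shared between genes; 11.9% of such stretches in FIT1 repeat within FIT1 itself.

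The ΔU libraries differed among themselves in a shared way, since ΔU 1 was the lowest of the 3 for all 10 genes. All 10 were called without ΔU 1, and likewise without each of the other ΔU and BY4741 libraries in turn. The levels of the alpha-specific genes moved with this comparison: STE3 and SAG1, the 2 that met the filter on low values through more than 1 group, were called higher. The summed level of all 4 alpha-specific genes was 42.0 to 48.4 RPM in ΔU and 26.4 to 38.2 RPM in BY4741 of series 2. MF(ALPHA)2 was at 0 to 0.206 RPM over all libraries. Of the a-specific genes 4 of 5 were called higher too, with sums of 1095 to 1231 RPM against 855 to 983 RPM; their part in the result was not tested.

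**Figure D3:**
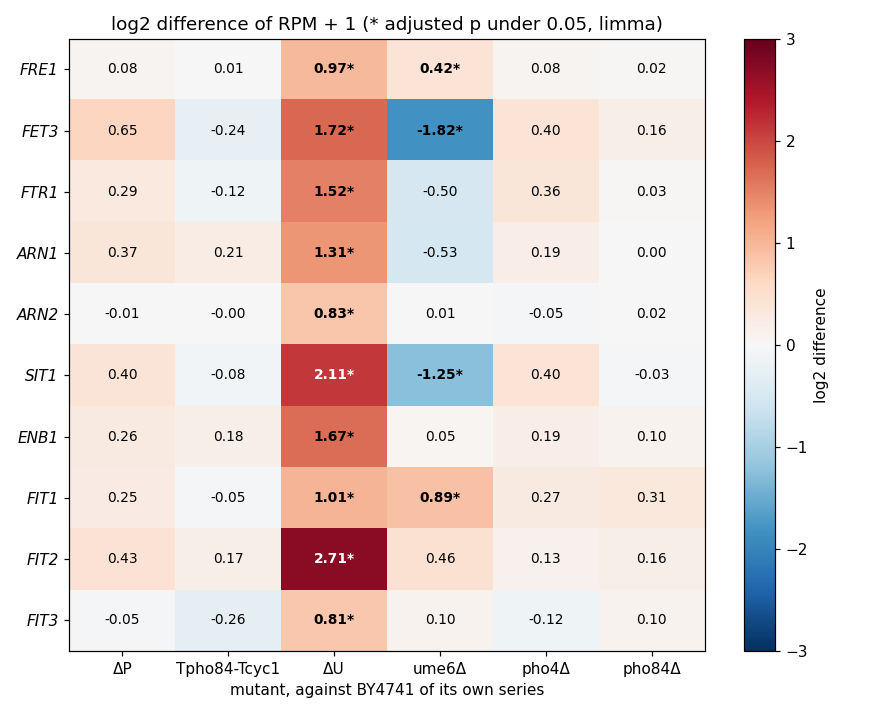
Log2 differences of RPM + 1 between each mutant and BY4741 of its own series for the 10 genes, in colour and in numbers; an asterisk marks an adjusted p under 0.05 (limma). ΔU has 10 asterisks and ume6Δ has 4, with FET3 and SIT1 below 0 and FRE1 and FIT1 above; the other 4 columns have none.

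In ume6Δ the 10 genes did not move as a group: 2 were called higher, 2 lower and 6 not called, where 34.4% of all genes tested were called, 23.1% higher and 11.3% lower (1349 of 2011 calls higher, and 1207 of 2148 after TMM rescaling). Their median log2 difference was 0.03, against 0.04 for all genes tested. FET3 was at 59.0, 45.6 and 44.2 RPM in ume6Δ, below every other library of the 21, and at 259 and 120 RPM in BY4741 4 and 5. The log2 difference was -1.82 (limma, adjusted p = 0.000654, SE 0.33), -1.28 without BY4741 4 and -2.37 without BY4741 5. SIT1 was at 19.5, 23.0 and 19.6 RPM, also below every other library, and its difference was -1.25 (SE 0.28, adjusted p = 0.00365, limma). This call was lost without BY4741 4, where the difference was -0.78 (adjusted p = 0.0683).

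The genes that rose in ume6Δ were FIT1 and FRE1. FIT1 was at 7.81, 9.83 and 8.27 RPM in ume6Δ against 4.40 and 3.98 RPM in BY4741, a difference of 0.89 (SE 0.14, adjusted p = 0.000168, limma). FRE1 was at 15.6, 19.0 and 20.6 RPM against 13.8 and 13.1 RPM, and its difference of 0.42 (SE 0.12, adjusted p = 0.0119, limma) was not called without BY4741 5 (adjusted p = 0.0725) or without ume6Δ 3 (adjusted p = 0.0551).

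The partner of FET3, FTR1, was at 77.5, 69.6 and 65.0 RPM in ume6Δ, around the lower BY4741 library at 75.4 RPM, and was not called (difference -0.50, SE 0.27, adjusted p = 0.166, limma). It was called lower without BY4741 5 (-0.91, adjusted p = 0.0424), against BY4741 of series 1 (-0.93, adjusted p = 0.00155) and against all 5 BY4741 libraries (-0.76, adjusted p = 0.0108). ARN1 was at 21.96 to 25.1 RPM in ume6Δ, below every other library, those of BY4741 being at 37.7 and 31.9 RPM, and was not called either (-0.53, SE 0.28, adjusted p = 0.157), although a fit of these groups alone called it (adjusted p = 0.0048). The intervals of the other 4 spanned 0: ENB1 differed by 0.05 (95% interval -0.26 to 0.37), ARN2 by 0.01 (-0.30 to 0.31), FIT3 by 0.10 (-0.23 to 0.43) and FIT2 by 0.46 (-0.64 to 1.56). Of the 2 alpha-specific genes tested, STE3 was called higher in ume6Δ. The sums of all 4 alpha-specific genes were 37.4 to 42.0 RPM there. The part of STE3 in these results was not tested.

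Because ΔU and ume6Δ share the BY4741 4 and 5 controls, they were also compared directly, which does not use those libraries in the difference. Limma called 9 of the 10 genes lower in ume6Δ than in ΔU, where 28.7% of all genes tested were called lower and 20.1% higher (1174 of 2851 calls higher, and 1627 of 2815 after TMM rescaling). The median log2 difference of the 10 genes was -1.73, against -0.06 for all genes tested. FET3 and SIT1 differed most, by -3.55 (SE 0.30, adjusted p = 2.62e-07, limma) and -3.36 (SE 0.25, adjusted p = 9.26e-08). FIT2 followed at -2.25, FTR1 at -2.02, ARN1 at -1.85 and ENB1 at -1.61, while ARN2 at -0.82, FIT3 at -0.71 and FRE1 at -0.55 differed less, and their adjusted p-values were 0.00108 or lower. FIT1 was the exception: it was at 8.35 to 10.5 RPM in ΔU and 7.81 to 9.83 RPM in ume6Δ, the ranges overlapped, and the difference was -0.12 (95% interval -0.39 to 0.15, adjusted p = 0.451). The same 9 genes were called under every one of the 16 alternatives computed for this comparison.

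**Figure D4:**
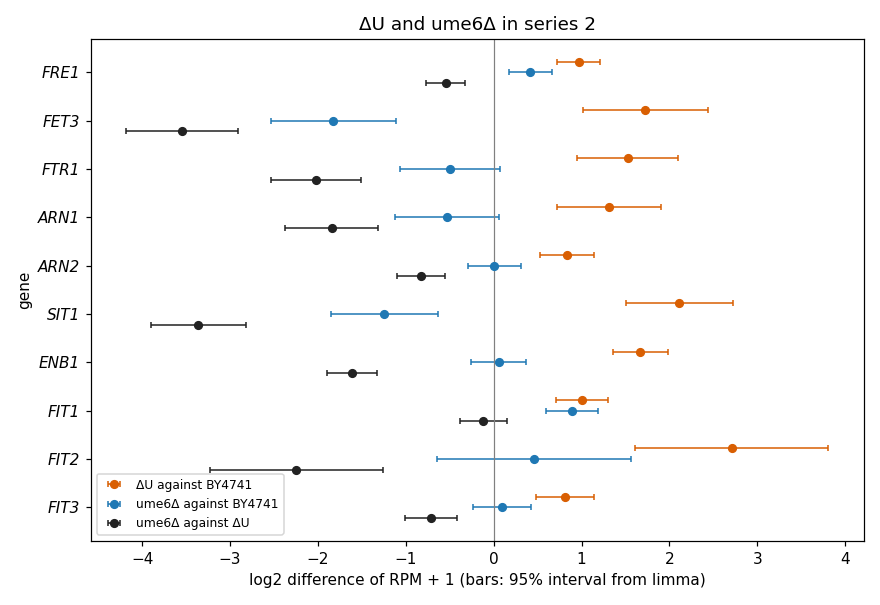
Log2 differences of RPM + 1 (points) with 95% intervals from limma (bars) for ΔU against BY4741, ume6Δ against BY4741 and ume6Δ against ΔU. All orange points lie above 0, the blue points lie on both sides, and for FIT1 the orange and blue points are close together at 1.01 and 0.89.

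In ΔP, 0 of the 10 genes were called, where 9.47% of 5775 genes tested were called, 5.80% higher and 3.67% lower (limma, 335 of 547 calls higher, and 223 of 527 after TMM rescaling); 2 of the 10, FET3 and ARN1, had an unadjusted p under 0.05, and edgeR, DESeq2 and voom on the recovered reads also called 0. FET3 was at 173, 143 and 277 RPM in ΔP 1 to 3 and at 102, 108 and 160 RPM in BY4741 1 to 3. The groups overlapped, ΔP 3 being the highest, and the difference was 0.65 (SE 0.26, adjusted p = 0.129). ARN1 was at 29.0, 36.5 and 45.0 RPM in ΔP against 26.5, 27.6 and 29.3 RPM (difference 0.37, SE 0.13, adjusted p = 0.0949, limma). FIT2 was at 4.28, 5.92 and 9.46 RPM against 4.60, 4.36 and 4.26 RPM (difference 0.43, SE 0.20, adjusted p = 0.191, limma). ΔP 3 was the highest ΔP library for all 10 genes. Leaving out libraries moved these counts. Without ΔP 1, ARN1 and FIT2 were called higher (0.53, adjusted p = 0.0165, and 0.66, adjusted p = 0.037, limma). Without ΔP 2, FET3 was called higher (0.85, adjusted p = 0.0326, limma). With the replicate number as a block, FET3 and ARN1 were called higher (limma, adjusted p = 0.0097 and 0.0447). Whether the numbers pair these cultures is not established.

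In Tpho84-Tcyc1, 0 of the 10 genes were called, where 7.97% of all genes tested were called, 4.42% higher and 3.55% lower (limma, 255 of 460 calls higher, and 160 of 484 after TMM rescaling), and 0 had an unadjusted p under 0.05; edgeR, DESeq2 and voom also called 0. FET3 was at 107, 73.0 and 138 RPM, within and below the BY4741 range of 102 to 160 RPM, with a difference of -0.24 (95% interval -0.80 to 0.33). The differences of the 10 genes ran from -0.26 for FIT3 to 0.21 for ARN1. Against each other, ΔP and Tpho84-Tcyc1 differed in 0 of the 10 genes, where 0.312% of all genes tested were called; 3 of the 10 had an unadjusted p under 0.05, and edgeR, DESeq2 and voom called 0. FET3 was the largest of these differences, 0.88 (SE 0.26, adjusted p = 0.30, limma), higher in ΔP. Deviations of same-numbered cultures of these strains from their group means correlated only weakly (r = 0.176, 0.159 and 0.273). ΔP 1 correlated best with Tpho84-Tcyc1 2, so a pairing by number is not established. With the replicate number as a block FET3 was called (limma, adjusted p = 0.0073). FET3 was also called without ΔP 2 (1.08, limma, adjusted p = 0.031).

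In the phosphate mutants of series 2 the 10 genes stayed within wide intervals around 0. In pho4Δ, 0 of the 10 were called, where 0.223% of all genes tested were, and in pho84Δ 0 of the 10, where 0.291% were; none of the 10 had an unadjusted p under 0.05 in either comparison, and edgeR, DESeq2 and voom called 0 in both. The pho4Δ cultures stood apart from each other: pho4Δ 2 was above pho4Δ 1 for all 10 genes, with FET3 at 340 against 160 RPM, SIT1 at 93.3 against 47.9 RPM and FTR1 at 177 against 93.4 RPM. FET3 in pho4Δ therefore differed from BY4741 by 0.40 with a 95% interval from -0.38 to 1.18. The pho84Δ cultures were closer to each other, with FET3 at 224 and 175 RPM and SIT1 at 53.9 and 44.9 RPM, and the largest difference from BY4741 was that of FIT1, 0.31 (95% interval -0.02 to 0.64). Between pho4Δ and pho84Δ, 0 of the 10 were called, where 0.497% of all genes tested were, with 0 at an unadjusted p under 0.05 and 0 by edgeR, DESeq2 and voom.

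The controls of the 2 series were compared in a fit of all 21 libraries. Of the 10 genes 0 were called between BY4741 of series 2 and series 1, where 37.1% of all genes tested were called (limma); 0 had an unadjusted p under 0.05, and edgeR, DESeq2 and voom called 0. With n = 2 in series 2, the intervals were wide, as for FET3 (0.54, 95% interval -0.20 to 1.29). BY4741 4 and 5 differed most in FET3, by 2.15 times, in SIT1, by 1.93 times, and in FTR1, by 1.76 times, while ARN2 and FIT3 were lower in BY4741 4. Without BY4741 4, FTR1 was called lower in series 2 (-0.84, adjusted p = 0.0383), and without BY4741 5, SIT1 was called higher (0.98, adjusted p = 0.0403).

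The effects of ΔP and ΔU, each against BY4741 of its own series, were set against each other in the same fit. The difference of the effects was called lower, that is, a smaller effect in ΔP, for 9 of the 10 genes, where 19.9% of all genes tested were called lower and 8.22% higher (487 of 1668 calls higher, and 932 of 1842 after TMM rescaling). It was -2.28 for FIT2 (SE 0.61, adjusted p = 0.00921, limma), -1.72 for SIT1 (SE 0.39, adjusted p = 0.00277) and -1.41 for ENB1 (SE 0.23, adjusted p = 0.000145). For FET3 it was -1.08 (SE 0.48, adjusted p = 0.099) and not called. Between Tpho84-Tcyc1 and pho84Δ the difference of the effects was called for 0 of the 10 genes, where 3.76% of all genes tested were called; 0 had an unadjusted p under 0.05, and edgeR, DESeq2 and voom called 0.

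Within series 2, the levels of FET3 thus ran from ΔU (606 ± 183 RPM, SD, n = 3) over pho4Δ (250 ± 127, n = 2), pho84Δ (200 ± 34.7, n = 2) and BY4741 (190 ± 98.0, n = 2) to ume6Δ (49.6 ± 8.18, n = 3). The libraries of pho4Δ, pho84Δ and BY4741 overlapped, and those of ΔU and ume6Δ overlapped with no other group. FIT2 ran from ΔU (39.4 ± 25.6 RPM, SD, n = 3) to ume6Δ (5.81 ± 0.81), pho4Δ (4.67 ± 2.54), pho84Δ (4.56 ± 0.95) and BY4741 (3.93 ± 0.38), and below ΔU each group overlapped with its neighbours in this order. FIT1 had another order, with ΔU (9.46 ± 1.06 RPM) and ume6Δ (8.64 ± 1.06) overlapping at the top, pho84Δ (5.43 ± 0.43) and pho4Δ (5.26 ± 0.16) overlapping below them, and BY4741 (4.19 ± 0.29) under both.

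The other genes of the iron regulon were read from a list of 28. In series 1, 26 were tested. In series 2, FRE5 was not tested and LSO1 met the filter on low values through ume6Δ alone, so that LSO1 is kept out of the counts, which are over 26 genes. In ΔU, 18 of the 26 rose and 0 fell, where 36.5% of all genes tested were called higher and 13.2% lower, with a median log2 difference of 0.76 against 0.15 for all genes tested. The largest differences were those of TIS11, whose protein destabilises mRNAs of iron-using proteins, HMX1, a heme oxygenase, and ECM4, a glutathione transferase. TIS11 was at 16.8, 53.1 and 52.3 RPM in ΔU and at 6.01 and 1.62 RPM in BY4741 (3.12, SE 0.48, adjusted p = 0.00015, limma), and as for FIT2 its lowest ΔU library was ΔU 1. HMX1 was at 18.2, 23.1 and 22.5 RPM against 2.07 and 1.93 RPM (2.88, SE 0.16, adjusted p = 3.1e-08, limma), and ECM4 rose by 1.55. Over the alternatives 18 to 20 genes of the list were called higher and 0 to 2 lower. The 18 also held CCC2 and ATX1, which deliver copper to Fet3 (69.6 against 23.8 RPM, and 29.6 against 12.7 RPM). ATX1 differed by -0.03 against BY4741 of series 1. Also among the 18 were the reductases FRE2, FRE3 and FRE6, and FET5 and FTH1 of vacuolar iron transport. So were the iron-sulfur scaffold ISU1 (399 against 140 RPM) and AFT1 itself (0.56, not called without BY4741 5). Of the 28 genes 8 held TGCACCC in the same upstream window.

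In ume6Δ, 6 of these 26 genes rose and 2 fell, where 23.1% of all genes tested were called higher and 11.3% lower, and the median was 0.03 against 0.04 for all genes tested. Over the alternatives 5 to 8 were called higher and 1 to 5 lower. HMX1 was at 12.4, 10.7 and 10.3 RPM in ume6Δ (2.01), BNA2, an enzyme of NAD synthesis from tryptophan, rose by 1.46, and FRE4, a reductase of siderophore-iron, by 1.37. The genes that fell were MRS4, a mitochondrial iron carrier, by 0.25 (a call lost under 9 of 16 alternatives), and the glutaredoxin GRX3, by 0.24. LSO1, a small protein whose gene responds to iron, was at 15.6, 13.2 and 14.0 RPM in ume6Δ and at 0.194 and 0 RPM in BY4741; these levels are a description, with no test. Directly against ΔU, 22 of the 26 were lower in ume6Δ and 3 were higher, the latter being FRE4, BNA2 and GRX4, where 28.7% of all genes tested were called lower and 20.1% higher. In ΔP, where 5.80% of all genes tested were called higher, 1 of 26 rose (0 to 5 over the alternatives), TIS11, from 3.62, 3.28 and 4.28 RPM in BY4741 to 5.92, 5.87 and 9.07 RPM (0.73, SE 0.19, adjusted p = 0.034, limma), a call lost under 10 of 18 alternatives, and in Tpho84-Tcyc1, pho4Δ and pho84Δ 0 of the list were called. Against BY4741 of the other series, 5 were called lower in pho4Δ, where 2144 of 5927 genes tested were called, 1128 of them higher. With the same control 3 were called lower and 1 higher in pho84Δ, where 2345 of 5927 were called, 1260 of them higher. In Tpho84-Tcyc1 0 to 4 were called higher and 0 to 1 lower over the alternatives.

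**Figure D5:**
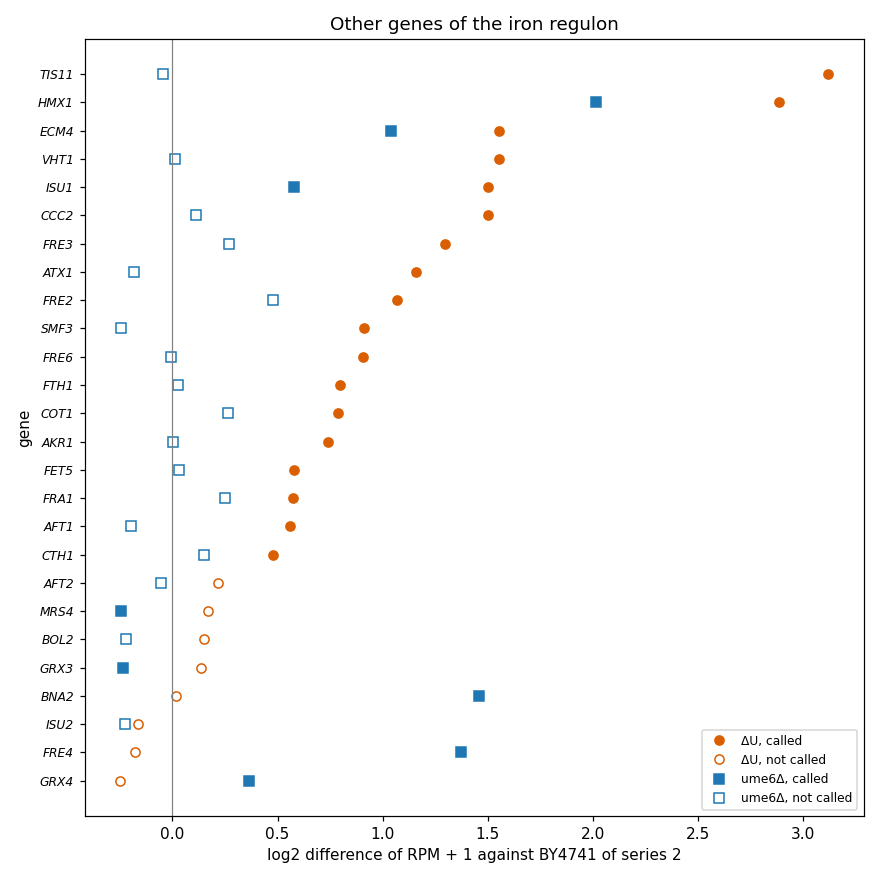
Log2 differences of RPM + 1 against BY4741 of series 2 for 26 other genes of the iron regulon, sorted by ΔU; filled symbols have an adjusted p under 0.05 (limma). In ΔU 18 genes are filled, all above 0, and in ume6Δ 8 are filled, with HMX1 farthest out at 2.01; LSO1 is not drawn.

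Neighbouring pathways of metal metabolism were read in ΔU from 5 further lists, where 36.5% of all genes tested were called higher and 13.2% lower. Many of these calls changed with the control. Of 5 copper uptake genes 4 rose and 0 fell (1 to 4 higher and 0 to 1 lower over the alternatives), led by the vacuolar copper transporter CTR2 (1.00), the plasma membrane transporter CTR1 (0.64) and the transporter CTR3 (0.57, a call lost under 9 of 16 alternatives). Against BY4741 of series 1, CTR1 was called lower instead (-0.66, adjusted p = 0.000119, limma), and against all 5 BY4741 it differed by -0.14 without a call. The low-affinity iron transporter FET4 fell, being at 10.6, 10.96 and 7.70 RPM in ΔU against 24.3 and 25.4 RPM in BY4741 (-1.28, SE 0.14, adjusted p = 9.5e-06, limma), and of the other 2 genes of that list, the metal transporter SMF1 rose by 0.35 (lost under 5 of 16) and SMF2 was not called. Of 8 heme synthesis genes 5 fell and 0 rose (1 to 5 lower and 0 to 1 higher over the alternatives), HEM13 by 0.42, HEM14 by 0.31 and HEM3 by 0.29, each of these calls being lost under 2 of 16 alternatives; against BY4741 of series 1, HEM13 differed by -0.097 and HEM3 by -0.011. Of 13 genes of mitochondrial iron-sulfur cluster assembly 9 rose (7 to 11 over the alternatives), led by ISA1 (1.16), IBA57 (0.83) and ISA2 (0.82), which act late in that pathway, and 1 fell, the exporter ATM1 (-0.30; 0 to 2 over the alternatives). Of 5 genes of the high-iron response 3 rose and 0 fell (1 to 3 higher and 0 to 1 lower over the alternatives), the regulator YAP5 (0.79) and the metallothionein copies CUP1-1 (0.70) and CUP1-2 (1.21), whose near-identical sequences make their separate values uncertain. Against BY4741 of series 1, CUP1-1 was at -0.13 and CUP1-2 at 0.16, neither called.

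In ume6Δ, where 23.1% of all genes tested were called higher and 11.3% lower, 1 of 5 copper uptake genes rose (CTR1, 0.75; 0 to 2 higher and 0 to 2 lower over the alternatives) and 0 of the 3 low-affinity genes were called (0 to 1 lower). Of 8 heme genes 1 rose (HEM12, 0.28; 0 to 2 over the alternatives) and 1 fell (HEM3, -0.19; 0 to 4). Of 13 iron-sulfur assembly genes 2 rose (ISA1, 0.34, and ISA2, 0.32; 0 to 4 over the alternatives) and 1 fell (GRX5, -0.23; 0 to 3). Of 5 high-iron genes 4 rose and 0 fell (1 to 4 higher and 0 to 1 lower over the alternatives), led by YAP5 (0.98), CUP1-1 (0.56) and CUP1-2 (0.48). Against BY4741 of series 1, CTR1 (-0.56, adjusted p = 0.000677) and CUP1-2 (-0.57, adjusted p = 0.0229) were called lower (limma), while CUP1-1 (-0.27), HEM3 (0.08) and ISA2 (-0.17) changed sign without a call. The calls of CUP1-1 and ISA2 were not kept under 9 of 16 alternatives each, those of HEM3 and ISA1 under 6. FET4 fell in ΔP (-0.48, SE 0.13, adjusted p = 0.037, limma) and in Tpho84-Tcyc1 (-0.51, SE 0.13, adjusted p = 0.03), as did TYW1, an iron-sulfur enzyme of tRNA modification (-0.34 and -0.35), and YAP5 rose in ΔP (0.41). These calls were lost under 6 to 9 of 18 alternatives. Against BY4741 of series 2, FET4 was higher in both, at 0.18 and 0.14, without a call. In pho4Δ and pho84Δ, where 0.223% and 0.291% of all genes tested were called, 0 genes of the 5 lists were called. Against BY4741 of series 1, 4 of 5 copper uptake genes, 2 of 3 low-affinity genes and 2 of 5 high-iron genes were called lower and 3 of 8 heme genes higher in each of these strains, 1 heme gene lower in pho84Δ, and 2 and 1 iron-sulfur assembly genes higher in pho4Δ and pho84Δ. With that control 2144 of 5927 genes tested were called in pho4Δ, 1128 of them higher. In pho84Δ 2345 of 5927 were called, 1260 of them higher.

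To find the genes whose pattern was most like that of the 10, log2(RPM + 1) was centred on BY4741 of each series and averaged over the 10 genes, and each gene outside the 10 with a mean of at least 10 RPM was compared with this average over the 21 libraries. The closest of 5143 were VMR1, a vacuolar transporter of the ABC family (Pearson r = 0.960), AKR1, a palmitoyl transferase (0.955), CCC2 (0.954), AIM36 (0.930), the ammonium permease MEP1 (0.929), YDR262W (0.926), FRE6 (0.925) and RSM7, a protein of the mitochondrial ribosome (0.925). Of these, AKR1, CCC2 and FRE6 are on the list of other iron genes. VMR1 was at 131 ± 33.4 RPM in ΔU (SD, n = 3), 49.8 ± 13.6 in BY4741 of series 2 (n = 2) and 38.4 ± 1.91 in ume6Δ (n = 3). Among the 10 themselves, FTR1 and ENB1 were closest to the average of the other 9 (r = 0.961 and 0.959) and FIT1 was the least close (0.511). These values describe the libraries and carry no p, since the points share strains and the high ΔU libraries weigh on each.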

How the data were processed

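The deposited table holds RPM, reads per megaread, for 7127 lines; 4 hold no values here and 7123 were used. The submitters' processing notes name HISAT2, featureCounts and edgeR. Their versions, settings, the genome build and the strand setting of counting are not given in the sources used here, so sense and antisense reads cannot be told apart. Dividing by the RPM of 1 read gave whole reads for 100% of the values (within 0.01 reads), so 1 RPM stood for 10.98 to 49.8 reads, and the 10 genes had at least 38 reads in every library.

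Levels were tested as log2(RPM + 1) with limma 3.58.1 (R 4.3.3, 1 mean per group, eBayes with trend), each series fitted apart, and all 21 libraries together for comparisons across series. Genes needed 1 RPM or more in at least 3 libraries (series 1) or 2 (series 2 and all 21). List genes that met this through 1 group alone were left out of counts and medians of lists. P-values were adjusted over all genes tested by Benjamini-Hochberg, and genes under 0.05 were called. The recovered reads were tested with edgeR 4.0.16, DESeq2 1.42.0 and voom as alternatives, beside other pseudocounts, filters, TMM scaling, other controls and each library left out. The fits were tested on simulated data.

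The 10 genes were chosen by symbol, and they and the lists were chosen with earlier results of these data known. Of each list up to 3 called genes per direction with the largest difference were named in the comparisons with BY4741; CCC2, ATX1, FRE2, FRE3, FRE6, FET5, FTH1, ISU1 and AFT1 in ΔU, LSO1, and the genes higher in ume6Δ than in ΔU, were named after their values were seen. Positions and sequences are RefSeq's for build R64, matched by identifier (6044 of 7123 found); the table gives no coordinates. Deviations of same-numbered cultures of ΔP and Tpho84-Tcyc1 from their group means correlated weakly (r = 0.176, 0.159 and 0.273 over 5152 genes). ΔP 1 correlated best with Tpho84-Tcyc1 2, and the labels state no pairing. The replicate block was fitted over all of series 1.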

Additional observations from a re-analysis of the deposited data

Results flagged for a closer look

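For 9 of the 10 genes the effect of ΔP, against BY4741 of series 1, differed from the effect of ΔU, against BY4741 of series 2, in a test of the difference itself (limma, all 21 libraries, adjusted p under 0.05). The effect was smaller in ΔP for each. The difference was -0.88 for FRE1, -1.23 for FTR1, -0.94 for ARN1, -0.84 for ARN2, -1.72 for SIT1, -1.41 for ENB1, -0.76 for FIT1, -2.28 for FIT2 and -0.86 for FIT3, on the log2 scale. ARN1 had the highest adjusted p of these, 0.0442, and lost its call under 12 of 20 alternatives. FTR1 lost it without BY4741 5 (-0.83, adjusted p = 0.115) and FIT2 with voom (adjusted p = 0.17). FET3, not called at -1.08, was called without ΔP 3 (-1.35), BY4741 4 (-1.63) or ΔU 1 (-1.34). The strains belonged to different series.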

How the results depend on the processing

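The count of the 10 genes called stayed at 10 for ΔU against BY4741 (9 with voom) and at 9 for ume6Δ against ΔU under every alternative run. For ΔP against BY4741 it moved from 0 to 2 with the replicate block (FET3 and ARN1), to 1 with BY4741 of the other series as the control (FTR1) and ranged from 0 to 2 when each library was left out. For pho4Δ against BY4741 it moved from 0 to 2 with the other control (FET3 and SIT1), where 2144 of 5927 genes tested were called. For ume6Δ against BY4741 it moved from 4 to 5 in a fit of these groups alone, where 1842 of 5788 genes were called. It was also 5 with the other control and with all 5 BY4741 as the control, where 3462 and 2496 of 5927 were called. For ΔP against Tpho84-Tcyc1 it moved from 0 to 1 with the replicate block and ranged from 0 to 1 with each library left out; for BY4741 of series 2 against series 1 it was 1 in a fit of these groups alone (ARN1) and 0 to 1 with each library left out. With a library left out it was 3 to 4 for ume6Δ against BY4741 and 7 to 10 for the difference of the effects of ΔP and ΔU; where this left 1 library in a group, that library was assumed to vary like the other groups. Over 1977 values of the 10 genes, 18 calls were lost and 20 gained, and 138 values changed sign, with no call under either setting. The cause was not tested.

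A pairing by number was not established for ΔP and BY4741, for Tpho84-Tcyc1 and BY4741 or for ΔU and ume6Δ. Not every pair deviated together, and not every culture correlated best with its own number. These weak correlations do not show that pairing was absent. The block changed no call in Tpho84-Tcyc1 (0) or in ume6Δ against ΔU (9). For pho4Δ and pho84Δ, whose same numbers deviated in opposite directions (r = -0.253), the block and, chosen after seeing the data, the crossed numbers both gave 0 (34 and 55 of all genes). Each of the 10 genes had 38 reads or more in every library; the 2 libraries each of BY4741 of series 2, pho4Δ and pho84Δ gave wide intervals.

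Counts over all genes moved more, for ΔP to 661 with the replicate block. They were 547 in ΔP (63 to 1880 over the alternatives), 460 in Tpho84-Tcyc1 (88 to 2019), 2011 in ume6Δ (up to 3462), 13 in pho4Δ (6 to 2144), 17 in pho84Δ (9 to 2345), 18 for ΔP against Tpho84-Tcyc1 (up to 548), 29 for pho4Δ against pho84Δ (18 to 63), 2196 between the BY4741 groups (1317 at the least), 223 for Tpho84-Tcyc1 against pho84Δ effects (70 to 446) and 1668 for ΔP against ΔU effects (940 at the least). Of 763 values of named genes of the other lists, 118 lost their call and 13 turned in direction, each with another BY4741 control: against the other series FET4 in ΔP (0.18) and Tpho84-Tcyc1 (0.14), CTR1 (-0.66), CUP1-1 (-0.13) and ATX1 (-0.034) in ΔU, CTR1 (-0.56), CUP1-1 (-0.27), CUP1-2 (-0.57), HEM3 (0.083) and ISA2 (-0.17) in ume6Δ, and against all 5 BY4741 CTR1 in ΔU (-0.14) and ume6Δ (-0.037) and CUP1-2 in ume6Δ (-0.15).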
